A study of Mus musculus with 4 samples.

Results

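The genes described here encode molecular chaperones and heat shock proteins, with their co-chaperones and the heat shock transcription factors. They were chosen by name: every gene on the array whose symbol starts with Hsp or Dnaj, the chaperonin genes Cct2 to Cct8 and Tcp1, Bag1 to Bag6, Hsf1, Hsf2, Stip1 and Ahsa1, with the unrelated perlecan gene Hspg2 left out. The choice gave 81 genes, read by 153 probes, of 27666 named genes and 41174 probes on the array. Mouse oocytes in pools of 50 were either held for 60 min at 37 °C under a hydrostatic pressure of 20 MPa, or kept alike without the pressure. Total RNA, 240 pg a pool, was amplified in 2 rounds, dye-labelled and hybridised to a long-oligonucleotide array that compares 2 RNA samples on the same spots. Each of 4 arrays carried 1 treated pool in the red (Cy5) channel and 1 control pool in the green (Cy3) channel. The treated pool was red on all 4 arrays, so dye and treatment cannot be told apart. The submitters call the 4 replicates biological. Strain, oocyte stage and age of the donors are not described in the labels used here, and a pool value averages its 50 oocytes.

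Molecular chaperones bind unfolded protein chains and help them to fold, to reach their compartment or to be degraded. HSP70 proteins bind short exposed stretches in a cycle driven by ATP, J-domain (DNAJ) proteins start that cycle, HSP90 proteins act on nearly folded clients, small HSPs hold unfolded proteins without ATP, and the CCT ring encloses actin and tubulin while they fold. When unfolded proteins build up, the factor HSF1 is released from chaperones and binds heat shock elements upstream of many of these genes. In the mouse, HSF1 is also known as a factor that the growing oocyte stores for the embryo. Fully grown oocytes make little new RNA, so a change in a transcript there can come from its decay or its polyadenylation as well as from its synthesis.

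The name in common, cytosolic chaperones, covers most but not all of these genes. By textbook assignment 11 of the 81 are proteins of the endoplasmic reticulum and 7 of the mitochondrion. A further name is historical: the probe named Hspc171 belongs to Tmem208, a membrane protein of the endoplasmic reticulum and no heat shock protein. Of the genes, 12 fell in the HSP70 family, 3 in the HSP90 family, 7 among the small HSPs, 37 in the DNAJ family and 9 in the CCT chaperonin. The other 13 were the 2 heat shock factors, the BAG proteins, the mitochondrial chaperonin pair Hspd1 and Hspe1, Stip1, Ahsa1, Hspbap1 and Tmem208.

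No chaperone or heat shock gene passed the test for a difference between pressure-treated and control oocytes. A gene was measured if at least 1 of its probes was well above background on at least 3 arrays in the same channel, and 43 of the 81 genes met this. None of the 43 passed an adjusted p of 0.05 in limma's moderated test of the log2 ratio against 0, which 0 of all 6920 genes tested did, 0.0% of them. The lowest adjusted p of a member was 0.929. The mean log2 ratio, treated over control, was above 0 for 22 members and below 0 for 21, with a median of 0.09 over the members and -0.02 over all genes tested. Without adjustment 1 member, Dnajc8, was under 0.05 and lower, where 3.45% of all genes were lower and 0.737% higher. The mean was past 2-fold for 2 members, Dnajc8 and Hsf1, where 2.08% of all genes were. With the scanner software's processed signals, which have no offset added, it was past 2-fold for 10 members, where 24.9% of all genes were.

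Across the 43 members the median SD over the arrays was 0.459, near the 0.524 of all genes tested. For 25 members the 95% interval of the mean lay inside a 2-fold change in either direction, while the intervals of the other 18 reached past it. Of those 25 members 12 had a mean net intensity (the spot mean less its local background) under 50 in at least 1 channel, and the offset of 50 added before the logarithm pulls such ratios towards 0. So few arrays also limit an exact test of a single value, since the smallest two-sided p of a sign-flip test with 4 arrays is 0.125.

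Which chaperones could be read at all differed between the families. All 3 HSP90 genes were measured, with 24 of 37 DNAJ genes, 5 of 12 HSP70 genes, 3 of 9 CCT genes, 2 of 7 small HSPs and 6 of the 13 others. The share over all members was 53.1%, against 25.0% of all named genes on the array. A further 27 members were not well above background on any array in either channel. All 7 mitochondrial members and 9 of the 11 members of the endoplasmic reticulum were measured, with medians of 0.20 and 0.11. The 63 members of the cytosol, nucleus or elsewhere included 27 that were measured, with a median of -0.03. Array means of a pool do not separate fewer transcripts in each oocyte from fewer oocytes that hold them.

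**Figure D1:**
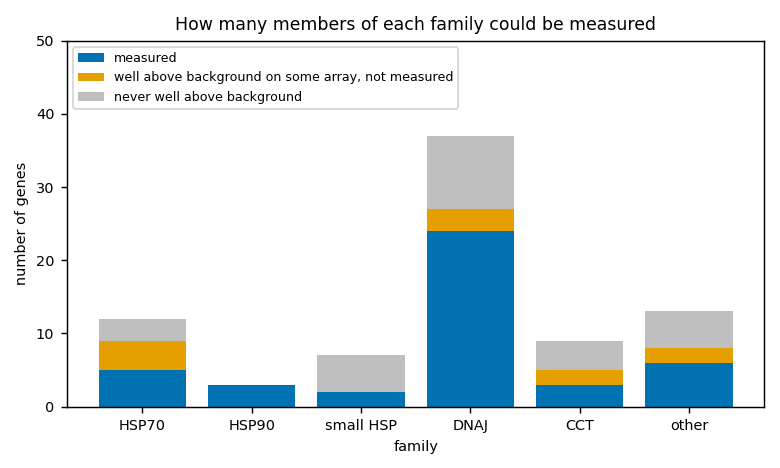
Number of genes (y axis) in each family (x axis), split by whether the gene was measured, was well above background on some array but on too few, or was never well above background in either channel. All 3 HSP90 genes were measured, and 5 of the 7 small HSP genes were never well above background.

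Inducible HSP70 genes were among those too dim to measure. Hspa1a, the stress-inducible cytosolic HSP70, has 4 probes, and the brightest of them stood clearly above background in 2 treated pools and 2 control pools. Its net intensity was 50.3, 7.0, 6.8 and 20.3 in the treated pools of replicates 1 to 4 and 14.9, 21.1, 44.7 and 211.6 in the control pools. The treated pool was the brighter on replicate 1 and the dimmer on the other arrays. Treated and control ranges overlapped. Probes for Hspa1a may also bind the transcript of its near-identical neighbour Hspa1b.

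Hsph1, an HSP110 protein that exchanges the nucleotide of HSP70, and Hspa5, the HSP70 of the endoplasmic reticulum, were also on both sides of background. Hsph1 had net intensities of 45.1, 9.4, 16.4 and 14 in the treated pools and 14.3, 28.5, 135.8 and 155.8 in the control pools. Hspa5 had 82.8, 11.3, 50.5 and 8.3 in the treated pools and 15.5, 30, 89.0 and 24.2 in the control pools. As for Hspa1a, the treated pool was brighter on replicate 1 only, which is the array on which the treated channel was the brighter over all genes. These net intensities are not normalized. After normalization the dim Hspa5 probe had log2 ratios of 0.75, -0.01, 0.70 and -0.08, so replicate 3 was above 0 as well. The Hsph1 probe and the brightest Hspa1a probe were then above 0 on replicate 1 only.

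Hspa8, the constitutive HSP70 of most cells, was not well above background on any array with either of its 2 probes, nor were Hspa1l and Hspa12b. Hsf2, the second heat shock factor, and Stip1, which hands clients from HSP70 to HSP90, were not well above background on any array either. Bag1, Bag2 and Bag4, which release nucleotide from HSP70, were at background too, and Bag3 was above it on 1 control array only. Among the CCT subunits Cct3, Cct4, Cct6a and Cct6b were at background, while Tcp1 was above it on 1 array in each channel and Cct7 on 2 in the control channel. Of the small HSPs, Hspb2, Hspb3, Hspb6, Hspb7 and Hspb8 stayed at background. These genes have no ratio here, and a probe at background does not show that the transcript is absent.

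These sequences are of the measured probes on which the results turn, because 2 probes of a gene gave different ratios and because the ratios are set against base composition below. Each probe is 60 bases long, and its first 30 bases are given as the array design lists them, in lower case with every G and C in capitals. Gene positions are in mouse build mm7, as the scanner files give them, and exons were not assigned.
Hsf1, chromosome 15, 76582655 to 76582715, 63.3% G and C: aGCCCtGaCtCCCtCCCtCCtCCtGCaGCt
Hsf1, chromosome 15, 76583299 to 76583358, 55% G and C: CCaGtGGaGCaCaGatGGaaCttGGtCCtG
Hspb9, chromosome 11, 100823357 to 100823416, 55% G and C: tCtGGCCatCtGtGGCtCaGGGGaCaaaaC
Hsp90aa1, chromosome 12, 108209304 to 108209363, 35% G and C: CaaGGCttGtGaatGGaaataaCaGtGCCC
Hsp90b1, chromosome 10, 86256795 to 86256854: aatCttGtCaGGaaGtaCtCtCaGttCatC
Hsp90b1, chromosome 10, 86249236 to 86249295: aatCCCGtGtGGaGaGGGaatGtGaaGttt
Dnajc8, chromosome 4, 131931840 to 131931899: tGaattGtGtGGCtCaaGGGtCatGtataG
Dnajc8, second probe, sharing 40 of its 60 bases with the first: tCatGtataGtttGtGGaatttttCCaatt

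Hsf1, the main activator of the heat shock genes, had the highest mean ratio of the measured members and also the widest spread. Its log2 ratio was -1.57, 1.22, 2.23 and 2.64 on replicates 1 to 4, a mean of 1.13 ± 1.90 (SD, n = 4), with a 95% interval from -0.67 to 2.93 and an adjusted p of 0.929 in limma. Replicate 1 lay below 0 and the other arrays all above 2-fold. The mean was 0.59 with processed signals and 0.33 with median centring in place of loess. These values came from the brighter of 2 measured probes, which was designed on a GenBank record. The second probe, designed on a RefSeq transcript, gave -0.14, -0.07, 0.16 and 0.10, a mean of 0.01 ± 0.14 (SD, n = 4). That probe was dim, with net intensities of 8.6 to 45.8 against an offset of 50, so it could hardly show a change of the size the bright probe gave.

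Before normalization the bright Hsf1 probe had nearly the same intensity in both channels on replicates 1 to 3. Its net intensity was 18411, 28499, 10869 and 37686 in the treated pools and 18759, 28244, 10922 and 22325 in the control pools. The log2 ratio of these net intensities was -0.03, 0.01, -0.01 and 0.76. Most genes did not behave in that way: the median net log2 ratio over all genes tested was 0.96 on replicate 1 and -1.56, -2.11 and -1.56 on replicates 2 to 4, as the channels differed in brightness. Loess normalization removes that general difference. It moved Hsf1 by -1.54 on replicate 1 and by 1.21, 2.24 and 1.88 on the others, which is nearly all of the final ratio on replicates 1 to 3 and most of it on replicate 4.

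Hspb9, a small HSP known as a testis protein, followed the same course from array to array. Its log2 ratio was -1.64, 0.90, 1.45 and 1.56, a mean of 0.57 ± 1.5 (SD, n = 4), with an adjusted p of 0.929. Its net log2 ratio was -0.49, -0.33, -0.38 and -0.03, so the treated channel was slightly the dimmer on every array before normalization. Of 41 members with a net ratio on all arrays, Hsf1 and Hspb9 were the 2 whose net ratio varied by less than 1 over the arrays. Among all genes 718 of 6828 did so, 10.5%. The median range was 3.93 for the members and 3.81 for all genes. Whether the bright Hsf1 probe and the Hspb9 probe bind only the transcript they are named for was not tested, so their values are those of the probes.

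**Figure D2:**
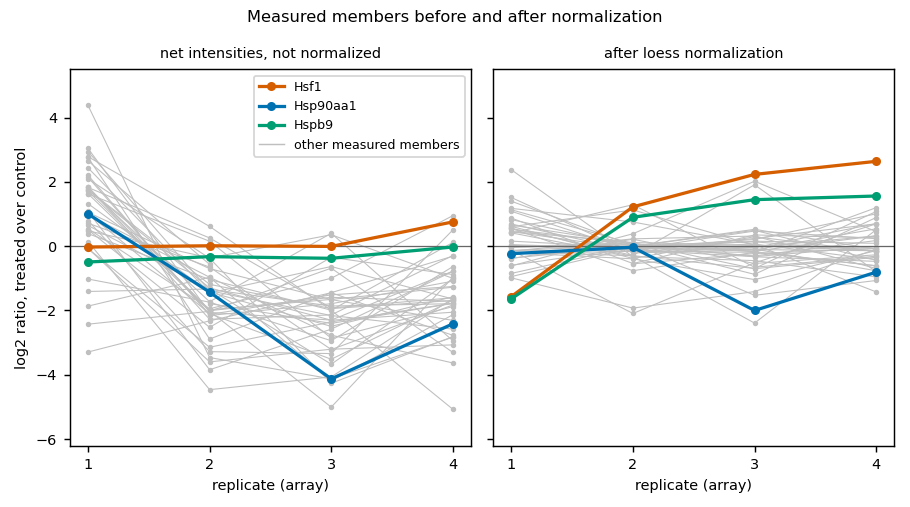
Log2 ratio of treated over control (y axis) on each array (x axis) for the measured members, from net intensities (left) and after loess normalization (right), with 1 line per gene. Hsf1 and Hspb9 stay near 0 before normalization, while most members lie above 0 on replicate 1 and below 0 on replicates 2 to 4.

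HSP90 proteins are among the most abundant proteins of many cells. Hsp90aa1, the form that many cells induce under stress, was below 0 on every array, at -0.23, -0.03, -2.00 and -0.81, a mean of -0.77 ± 0.88 (SD, n = 4) with a 95% interval from -1.68 to 0.14. Its unadjusted p was 0.082 and its adjusted p 0.929 in limma. Replicate 3 set much of the mean, which was -0.36 without it. On that array the control pool had a net intensity of 12003 and the treated pool 687.4, whereas on replicate 1 the treated pool was the brighter, at 1839 against 917.0.

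Hsp90ab1, the constitutive cytosolic form, had a log2 ratio near 0 on each array, from a dim probe. Its log2 ratio was -0.13, 0.02, 0.13 and -0.14, a mean of -0.03 ± 0.13 (SD, n = 4), with a 95% interval from -0.44 to 0.37. Replicates fell on both sides of 0, within 0.14 of it. Its net intensity was 16.1 to 89.5, near the offset of 50 that pulls the ratio of a dim probe towards 0, and with processed signals it was at -0.32.

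Hsp90b1, the HSP90 of the endoplasmic reticulum, had 2 measured probes that disagreed in sign. The brighter gave -0.61, 0.39, 2.02 and 0.45, a mean of 0.56 ± 1.09 (SD, n = 4). The other gave 0.80, 0.01, -1.45 and -1.23, a mean of -0.47 ± 1.06 (SD, n = 4). The probes lie about the same gene but took opposite signs on 3 of 4 arrays, so no direction is given for Hsp90b1. The family's median was -0.03.

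Measured HSP70 genes were divided in sign, with 3 means above 0, 2 below 0 and a family median of 0.14. Hspa4, a nucleotide exchange factor of the HSP110 kind, had 0.66, 0.08, -1.53 and -1.07, a mean of -0.47 ± 1.01 (SD, n = 4). Hspa2, known for its role in male meiosis, had 1.18, 0.75, 0.05 and -1.42, a mean of 0.14 ± 1.14 (SD, n = 4). Hspa9, the mitochondrial HSP70, had 1.40, 0.02, -0.09 and -0.77, a mean of 0.14 ± 0.91 (SD, n = 4).

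All of these 3 genes were highest on replicate 1 and below 0 on replicate 4. Hspa14, a ribosome-associated member, was at 0.40, 1.29, -0.65 and -0.31, a mean of 0.18 ± 0.86 (SD, n = 4). Hspa4l, a relative of Hspa4, was at -0.02, 0.10, -0.70 and -0.35, a mean of -0.24 ± 0.36 (SD, n = 4). Array by array the HSP70 median was 0.66, 0.10, -0.65 and -0.77, with replicates 1 and 2 above 0 and replicates 3 and 4 below it.

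Among the small HSPs, Hspb1 was the only measured gene beside Hspb9. Hspb1 (HSP27), which binds unfolded proteins and actin, had 0.16, -0.04, 0.21 and 1.01, a mean of 0.33 ± 0.46 (SD, n = 4). Each channel detected it on 3 of the arrays. Its value lay near 0 on replicates 1 to 3 and was 2-fold higher in the treated pool on replicate 4 only. With processed signals its mean was 1.15.

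**Figure D3:**
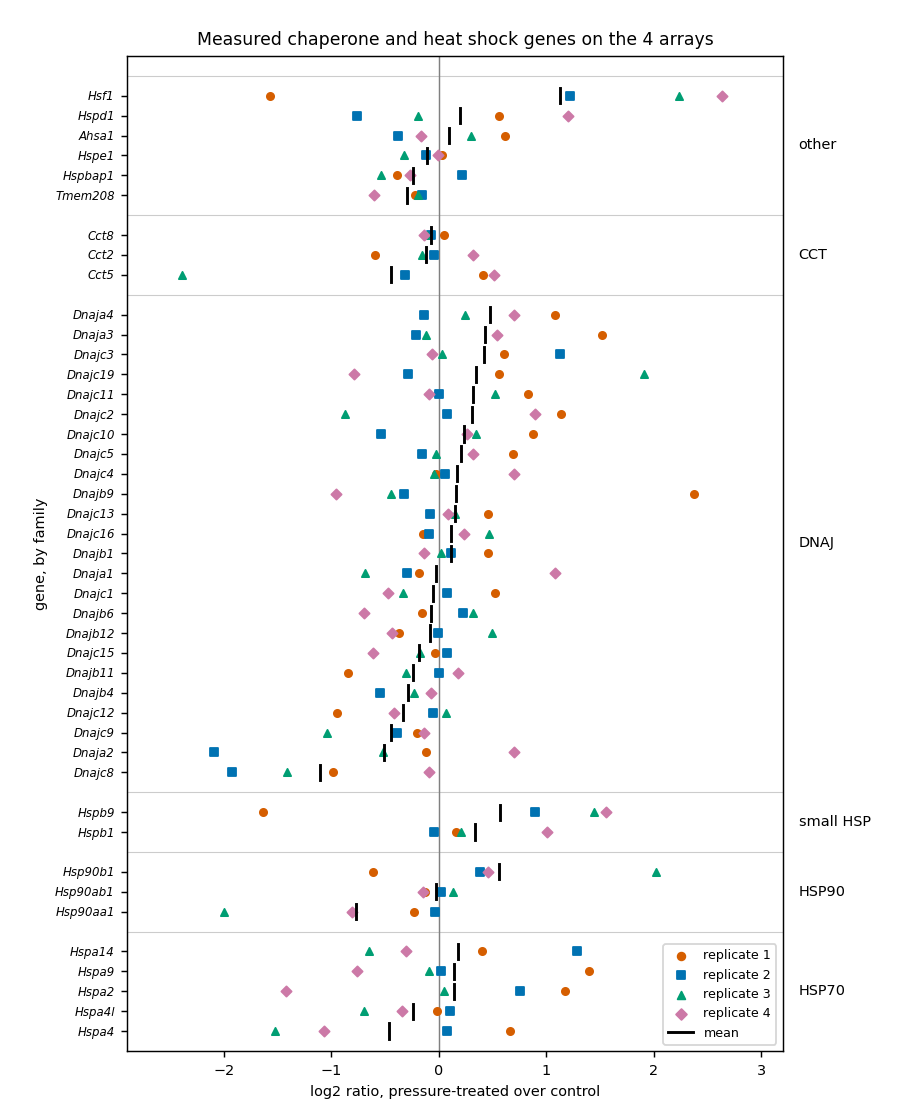
Log2 ratio of pressure-treated over control (x axis) for the 43 measured genes (y axis), grouped by family. Points are the 4 arrays and black bars the means; 4 genes lie below 0 on every array and none above 0 on every array.

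Dnajc8, a J-domain protein of the spliceosome, had the lowest mean of the members. Its log2 ratio was -0.98, -1.93, -1.41 and -0.09, a mean of -1.10 ± 0.78 (SD, n = 4) with a 95% interval from -1.92 to -0.29. It had an unadjusted p of 0.017 and an adjusted p of 0.929 in limma. All 4 arrays were below 0, replicate 4 only just.

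Its second probe, which overlaps the first, gave -0.24, -0.72, -1.0 and -0.29, a mean of -0.56 ± 0.36 (SD, n = 4). It kept the direction at a smaller size, and as both probes share bases they do not count as separate evidence. Before normalization the first probe's net intensity was 797.0, 55, 38.5 and 304.4 in the treated pools and 720.6, 1211, 644.0 and 940.5 in the control pools. On replicate 1 the pools were close before normalization, with a net log2 ratio of 0.14, and loess moved that value by -1.13.

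Dnajc9, a J-domain protein that also binds histones, was below 0 on every array as well. It had -0.20, -0.39, -1.04 and -0.14, a mean of -0.44 ± 0.41 (SD, n = 4), with an unadjusted p of 0.091. Dnaja4, a cytosolic partner of HSP70, had the highest mean of the family, with 1.09, -0.14, 0.24 and 0.70, a mean of 0.47 ± 0.53 (SD, n = 4) and an unadjusted p of 0.11. The adjusted p was 0.929 in limma for both.

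Heat-inducible J-domain proteins of the cytosol were measured too. Dnajb1 (HSP40), a target of HSF1, had 0.46, 0.11, 0.02 and -0.14, a mean of 0.11 ± 0.25 (SD, n = 4) with a 95% interval from -0.34 to 0.56. Dnaja1, an HSP70 partner at membranes and in the cytosol, had -0.19, -0.29, -0.69 and 1.08, a mean of -0.02 ± 0.77 (SD, n = 4). For Dnajb1 the interval stayed inside a 2-fold change, and for Dnaja1 replicate 4 alone was above 0 and processed signals gave -0.60.

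Some J-domain proteins of the endoplasmic reticulum had 2 or more measured probes. Dnajb9, a target of the unfolded protein response, was 2.38 on replicate 1 and -0.32, -0.45 and -0.96 on the others, a mean of 0.16 ± 1.5 (SD, n = 4). Its other 2 measured probes had means of 0.08 and 0.28 and were also highest on replicate 1. Dnajc10, a disulfide reductase, had 0.88, -0.54, 0.35 and 0.26 with its brighter probe and -0.61, -0.66, -0.36 and 0.25 with the other.

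The means of the 2 Dnajc10 probes were 0.24 ± 0.58 and -0.35 ± 0.42 (SD, n = 4), opposite in sign. Dnajc3, an inhibitor of the kinases that halt translation, had means of 0.42, 0.01 and 0.43 over its 3 measured probes. Dnajc12 was well above background in 3 control pools and in 0 of the 4 treated pools. Its level in the treated pools has only a bound, and the mean control level was 1.26 times that bound. A difference was not shown, with an adjusted p of 0.929 in limma and an interval of the mean log2 ratio from -0.91 to 0.23. The log2 ratio was -0.95, -0.05, 0.07 and -0.42, so replicate 3 did not share the direction, and the mean was -0.34, or -0.14 without replicate 1. The 1.26 is a ratio of means and leaves out the scatter over arrays. In log2 the bound was 6.215 and the treated channel's own mean 6.214, so the 1.26 adds little to the mean ratio. Net intensities in the treated pools were 4.5 to 8.8, and the offset of 50 pulls such a ratio towards 0. With processed signals Dnajc12 was at -2.77, with an adjusted p of 0.57 in limma.

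Over the DNAJ family 13 means were above 0 and 11 below, with a median of 0.11 and a range from -1.10 to 0.47. On the single arrays the median was 0.45, -0.09, -0.04 and -0.07. Replicate 1 was thus the only array on which the family's median lay above 0. Of the 13 unmeasured genes, 10 were at background throughout, among them Dnajb2, Dnajc7 and Dnajc14.

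**Figure D4:**
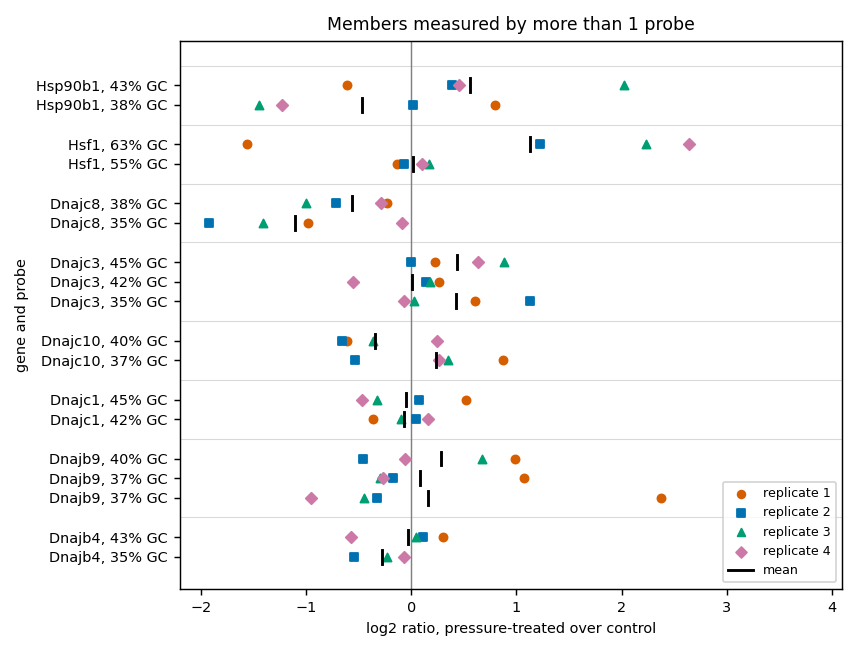
Log2 ratio of pressure-treated over control (x axis) for the 8 members with more than 1 measured probe, with 1 line per probe (y axis, with its share of G and C). Points are the arrays and black bars the means, which have opposite signs for Hsp90b1 and Dnajc10.

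In the CCT ring 3 subunits were measured, all with means below 0 and a median of -0.12. Cct8 was at 0.05, -0.08, -0.11 and -0.14, a mean of -0.07 ± 0.08 (SD, n = 4). Cct2 was at -0.60, -0.05, -0.15 and 0.32, a mean of -0.12 ± 0.38 (SD, n = 4). Cct5 was at 0.41, -0.32, -2.39 and 0.51, a mean of -0.45 ± 1.35 (SD, n = 4).

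The low mean of Cct5 came from replicate 3, without which it was 0.20. Cct2 was at -1.22 with processed signals. Cct8 was well above background in 1 treated pool and 3 control pools, with net intensities of 4.0 to 44.4, and it was at -1.22 with processed signals. As 52.4% of all genes had a mean below 0, the count of 3 subunits below 0 says little about the ring.

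Mitochondrial chaperonin genes are a head-to-head pair that shares a promoter. Hspd1 (HSP60), the chaperonin ring, had 0.56, -0.76, -0.19 and 1.20, a mean of 0.20 ± 0.86 (SD, n = 4). Hspe1 (HSP10), its lid, had 0.03, -0.12, -0.32 and -0.01, a mean of -0.11 ± 0.16 (SD, n = 4) with a 95% interval from -0.52 to 0.31. Neither differed from 0 beyond its spread, and Hspd1 had arrays on both sides of 0.

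Ahsa1, the activator of the HSP90 ATPase, had 0.62, -0.38, 0.29 and -0.17, a mean of 0.09 ± 0.45 (SD, n = 4). Hspbap1, which binds HSPB1, had -0.39, 0.22, -0.54 and -0.27, a mean of -0.24 ± 0.33 (SD, n = 4). Tmem208 was below 0 on every array, at -0.22, -0.16, -0.19 and -0.61, a mean of -0.30 ± 0.21 (SD, n = 4), but was well above background in 1 treated pool only. With processed signals Tmem208 was at -2.40.

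In all, 4 of 42 members with 4 values were below 0 on every array, namely Dnajc8, Dnajc9, Hsp90aa1 and Tmem208, and 0 were above 0 on every array. Over all genes with 4 values the shares were 9.35% and 2.94%. The members' count of 4 below 0 was thus at the share seen over all genes.

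Replicate 1 stood apart from the other arrays, and this bears on every mean above. Described across all probes, its correlation was -0.17 with replicate 2, -0.15 with replicate 3 and -0.19 with replicate 4, whereas the other pairs of arrays had 0.29, 0.09 and 0.23. The 99th percentile of net intensity was 2.56 times as high in the treated as in the control channel on replicate 1, and 0.393, 0.247 and 0.304 times as high on replicates 2 to 4. Oocyte genes, 13 of 17 on the array measured, had a median of -0.08, and Nlrp5 was at background throughout. Of 15 markers of cumulus and granulosa cells, which surround the oocyte, 6 were measured with a median of -0.12. These were Ptgs2, Tnfaip6, Inha, Cyp19a1, Hsd17b1 and Nr5a2, with means from -0.65 (Hsd17b1) to 0.36 (Cyp19a1). Amh, Fshr, Star, Cyp11a1, Foxl2 and Kitl were at background throughout. The summed net intensity of the 15 markers was 669 to 2706 in the treated pools and 1019 to 6017 in the control pools. For the oocyte genes it was 48128 to 348061 and 97834 to 299648. Of 6 blood and immune markers 2 were measured, Srgn at -0.52, below 0 on every array with an unadjusted p of 0.020 and an adjusted p of 0.929 in limma, and Hba-a1 at 0.28, while Hbb-b1 and Cd68 were at background. The part of these cells or of array brightness in the members' ratios was not tested.

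Among the members, 19 of 42 had a sign on replicate 1 opposite to the mean of the other arrays, 45.2%, against 60.1% of all genes. Over those 42 genes the correlation of replicate 1 with the mean of the others was -0.32, a description over genes that share the same arrays. Without replicate 1, 0 members passed and 4 were under an unadjusted 0.05. These were Hsf1 at 2.03, Hspb9 at 1.30, Dnajb9 at -0.58 and Dnajc8 at -1.14.

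Hsf1 and Hspb9 had an adjusted p of 0.17 in limma without replicate 1, which was also the lowest over all genes tested. The shares of all genes under the same unadjusted limit were then 6.34% higher and 4.61% lower. On replicates 2 to 4, 8 of 43 members were below 0 on all 3 arrays and 3 above, Hsf1, Hsp90b1 and Hspb9, where 21.8% and 18.4% of all genes were. With the sign of replicate 1 turned, Hsf1 was at 1.92 and Hspb9 at 1.39, with an adjusted p of 0.054 in limma for each. Both genes are those whose net ratio hardly varied between arrays. The 0.054 was also the lowest adjusted p over all 6920 genes in that setting, where 933 were under an unadjusted 0.05. The labels give no ground for turning replicate 1, as its treated pool was red as on the other arrays.

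Log2 ratios of the members also went with the share of G and C in the probe, and in opposite directions on different arrays. The correlation was -0.40 on replicate 1 over 42 members, and 0.21, 0.49 and 0.57 on replicates 2 to 4 over 43 members. Without Hsf1 and Dnajc13, whose probes have the highest and the lowest share at 63.3% and 28.3%, it was -0.28, 0.08, 0.41 and 0.46. Without Hsf1 and Hspb9 it was -0.17, -0.02, 0.30 and 0.34. These are descriptions over probes of 1 set of arrays, which also share their normalization, and the part of base composition in the ratios was not tested.

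**Figure D5:**
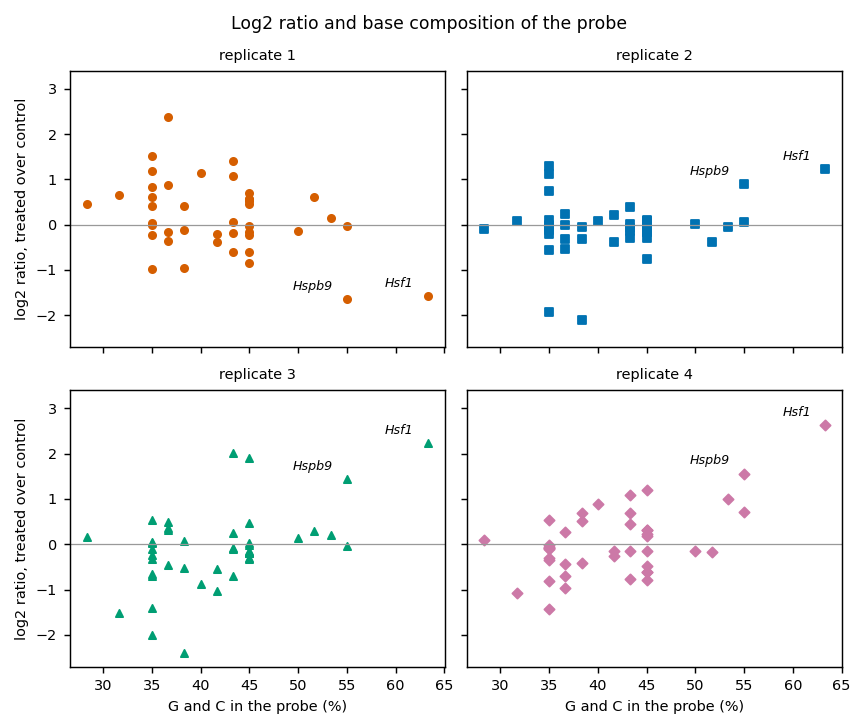
Log2 ratio of pressure-treated over control (y axis) against the percentage of G and C in the probe (x axis), with 1 panel per array and 1 point per measured member. Hsf1 and Hspb9, both rich in G and C, lie low on replicate 1 and high on replicates 2 to 4, while the other 4 probes with at least 50% G and C lie between -0.13 and 0.62 on replicate 1.

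HSF1 binds arrays of the unit nGAAn in alternating orientation, so promoters of the members were searched for 3 such units. The search used GAANNTTCNNGAA and TTCNNGAANNTTC, which are each other's reverse complement and so cover both strands, in the 250 bases before and 50 after each RefSeq start site in build GRCm38.p6. Of all 32851 promoters, 198 held a match, 0.603%. Of the 81 members 66 were matched to a promoter, and 6 of their 86 promoters held the motif, 6.98%. They belonged to 4 genes, Hspd1 and Hspe1 with the promoter they share, Dnajb6 and Hsph1. These 4 are not a list of HSF1 targets, as Dnajb1, given above as a target, is not among them. The 15 members without a promoter entry were not searched. Dnajb6 and Hsph1 were each counted more than once, through overlapping windows that hold the same match. The 6 promoters are therefore not 6 separate sites, and promoters of all genes were counted in the same way. A match is a description of letters and no binding was measured here.

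The shared promoter of Hspd1 and Hspe1 and that of Dnajb6 are shown because these genes were measured, with the motif in capitals on the plus strand. In the first, 2 overlapping matches form 1 run of capitals.
Hspe1, chr1:55088018-55088117: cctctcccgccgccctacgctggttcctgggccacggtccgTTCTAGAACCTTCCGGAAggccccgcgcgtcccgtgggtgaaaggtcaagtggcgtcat
Dnajb6, chr5:29735798-29735887: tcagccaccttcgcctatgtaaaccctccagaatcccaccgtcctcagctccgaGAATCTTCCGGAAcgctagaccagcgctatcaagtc

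The 3 measured genes that carry the motif did not move together. Hspd1 and Hspe1 are given above, at means of 0.20 and -0.11. Dnajb6, a J-domain protein that hinders aggregation, had -0.16, 0.23, 0.32 and -0.69, a mean of -0.08 ± 0.46 (SD, n = 4). Only this 1 of its 3 probes was bright enough to be measured, and the others had means of 0.66 and -0.13. The probe at 0.66 was well above background only in the treated pools of replicates 1 and 3. Hsph1, the remaining gene with the motif, was too dim to be measured. All 3 means of the measured probes lay within 0.20 of 0, and each of these probes had arrays on both sides of it.

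Other genes of the chaperone network had a median near 0 as well. They are a list, outside the name rule, of prefoldins, HSP90 co-chaperones, HSP70 regulators, CCT helpers, crystallins and relatives or regulators of heat shock factors. Of 40 such genes 20 were measured, with 8 means above 0, 12 below, a median of -0.03 and a range from -0.54 to 0.33. None passed the test and 0 were under an unadjusted p of 0.05 in limma. Single arrays lay farther from 0 for some of these genes. Chordc1 was at -0.22, -1.52, -0.52 and 2.13, a mean of -0.03 ± 1.55 (SD, n = 4). Of 31 network genes matched to a promoter it was the 1 with the heat shock motif. Cdc37, which brings kinases to HSP90, was above 0 on every array, at 0.32, 0.31, 0.16 and 0.54, a mean of 0.33 ± 0.16 (SD, n = 4) with an adjusted p of 0.929. Txndc9, a regulator of the CCT ring, had -0.54 ± 0.57, and Pfdn1, a subunit of the prefoldin that delivers chains to that ring, had -0.31 ± 0.24 (SD, n = 4). On every array 2 of the 20 were above 0, Cdc37 and Pfdn4, and 1 was below, Pfdn1, where the shares of all genes were 2.94% and 9.35%.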

How the data were processed

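Total RNA from 4 treated and 4 control pools was compared on 4 arrays. The authors' scanner files hold mean and local background intensity per spot, produced, per the submitters' processing notes, by Agilent Feature Extraction 9.5.1.1. Their deposited log10 ratio of red over green was an alternative.

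The intensity values were background-corrected (normexp, offset 50) and loess-normalized within arrays, giving control spots no weight (limma 3.58.1, R 4.3.3). Control and outlier spots were then dropped. Saturation affected 0 spots. Replicate spots were averaged. A probe was kept where 1 channel detected it on 3 or more of the 4 arrays, and the brightest such probe stood for its gene, which left 8108 probes and 6920 genes. limma's lmFit and eBayes tested the log2 ratio against 0, and p-values were adjusted by Benjamini-Hochberg over the 6920 genes. Of 43379 spots, 7049 to 11155 were detected in treated pools and 8309 to 10837 in control pools. The number of arrays limits the precision. The arrays share 1 slide and 1 scan, so a batch term has no levels. Dnajb4 had 3 values, its spot on replicate 1 being an outlier.

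Names were updated through RefSeq (GRCm38.p6) for 4 members; promoters are from the same build. Named were a fixed set of chaperone genes where measured, the 3 of each family and of the network list with the smallest p, members of 1 sign on all arrays and members whose probes differ in sign. Dnajb6, Dnajb9, Dnajc3 and Dnajc12 were named after their values were seen. The members and lists were chosen with earlier results of these data known. On simulated data the test missed changes of 2-fold and recovered most, with some false calls, only where changes were larger.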

Additional observations from a re-analysis of the deposited data

Results flagged for a closer look

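Of 49 sets of 4 array values examined for the measured members, their family medians and the median of all members, 3 had 1 array far from the other arrays, where chance gives about 5% of sets. Dnajc4, a J-domain protein, was at 0.70 on replicate 4 and between -0.04 and 0.05 on the other arrays. Tmem208 was at -0.61 on replicate 4 and between -0.22 and -0.16 on the others. The median of the DNAJ family was 0.45 on replicate 1 and between -0.09 and -0.04 on the others, and replicate 1 is also the array on which the treated channel was the brighter.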

How the results depend on the processing

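The alternatives covered background correction, normalization, the filter on dim probes, the use of several probes, the eBayes settings, array weights, the authors' values, replicate 1 turned and leaving out each array. Under every one 0 members, 0 genes of the network list and 0 of all genes passed limma's adjusted test, with 0 to 5 members, 0 to 4 genes of that list and 134 to 933 of all genes under an unadjusted 0.05. The lowest adjusted p of a member was 0.054, with replicate 1 turned, and that was also the lowest over all genes. Of 25 named members 10 kept their sign in every setting that gave them a value (Cct8, Dnajc8, Dnajc9, Hsf1, Hsp90aa1, Hsp90b1, Hspa4l, Hspb1, Hspbap1 and Tmem208), and 15 did not. Dnajc8, Dnajc9, Hsp90aa1 and Tmem208 were below 0 on every array, which was also a reason for naming them. Leaving out an array could therefore not turn them. The share of all genes that kept their sign was not counted. Cct8, Hspb1 and Tmem208 have no value where both channels must be above background on all arrays. Except for the mean over probes, every setting took the brightest probe of a gene. The other measured probe was at -0.47 for Hsp90b1 and 0.01 for Hsf1, and the mean over probes gave 0.047 and 0.57. A kept sign therefore gives no direction for Hsp90b1. No test separated dye from treatment, and dim probes give ratios near 0. Each log2 ratio already sets the 2 pools of 1 array against each other, so the test against 0 is paired by array. The replicate number offers no further pairing.

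Median centring moved the median of all genes from -0.02 to -0.34, and that of the members to -0.32, DNAJ to -0.27, HSP90 to -0.21 and the other members to -0.45. It turned Dnajc10 to -0.38, Hspa14 to -0.39, Dnajb1 to -0.54, Hspa2 to -0.21, Ahsa1 to -0.46, Hspd1 to -0.42, Hspa9 to -0.36 and Hspb9 to -0.13. The scanner software's processed signals, like the authors' deposited ratios, gave -0.12 for all genes, 0.00 for the members, -1.22 for CCT, -0.32 for HSP90 and 0.12 for the others, and turned Hspa2 to -0.19, Hspa4 to 0.12 and Hspe1 to 0.029. With replicate 1 turned the members' median and that of the others were -0.10, and Hsp90ab1 was 0.034, Hspd1 -0.079, Hspa9 -0.56, Ahsa1 -0.22, Hspa2 -0.45, Cct2 0.18, Dnaja4 -0.071, Hspa14 -0.02, Dnajb1 -0.12, Dnajc10 -0.20 and Dnaja1 0.07. Array weights gave -0.034 for the members, -0.14 for the others, 0.015 for Hsp90ab1, -0.13 for Ahsa1, -0.34 for Hspd1 and -0.15 for Dnajc10. The mean over probes gave -0.024 for the members and -0.055 for Dnajc10. Without background subtraction the members' median was -0.014, and without a filter -0.004. With both channels above background on all arrays CCT was -0.45 and the others 0.09. The HSP70 median went from 0.14 to -0.39 with median centring and to -0.45 with replicate 1 turned. That of the small HSPs went from 0.45 to 0.05 with median centring, 0.88 with processed signals and 0.006 without a filter. The DNAJ median went from 0.11 to -0.065 with processed signals and to -0.11 with replicate 1 turned. The causes were not tested.

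Leaving out 1 array in turn gave medians of -0.28 to 0.35 for HSP70, -0.09 to 0.007 for HSP90, 0.17 to 0.85 for small HSP, 0.02 to 0.15 for DNAJ, -0.27 to -0.06 for CCT, -0.14 to 0.072 for the others and -0.003 to 0.074 for all members. The members that changed sign ran from -0.086 to 0.25 (Ahsa1), -0.27 to 0.04 (Cct2), -0.76 to 0.20 (Cct5), -0.39 to 0.20 (Dnaja1), -0.0034 to 0.20 (Dnajb1), -0.086 to 0.0067 (Hsp90ab1), -0.19 to 0.46 (Hspa14), -0.21 to 0.66 (Hspa2), -0.28 to 0.44 (Hspa9) and -0.13 to 0.52 (Hspd1).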
